A study of Mus musculus with 32 samples.

Results

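Ikaros (IKZF1) binding 2 h after its entry into the nucleus was compared with binding at 1 h, to ask whether the set of bound sites had settled by the earlier time. The members were the merged regions of the 4 Ikaros peak lists at those times. Of 21880 merged regions, 579 were called in both 2 h libraries and neither 1 h library (gained, 2.65%), 595 were called in both 1 h libraries and neither 2 h library (lost, 2.72%) and 6715 were called in all 4 (kept). The 8 Ikaros libraries of the whole series merged into 23856 regions.

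The cells were B3, a mouse line derived from a lymphoma with the expression profile of pre-B progenitors, and binding was mapped by chromatin immunoprecipitation and sequencing (ChIP-seq). The cells carried a retrovirus that expresses HA-tagged Ikaros fused to ERt2, an estrogen receptor domain that admits the fusion to the nucleus once 4-hydroxytamoxifen (4-OHT) binds it, and transduced cells were sorted by GFP. Cells of both groups received 500 nM 4-OHT for 1 h or 2 h, and each time had 2 replicates. Cells without 4-OHT (0 h) and cells at 30 min were used only as separate readouts, together with the CHD4 and H3K27ac lists of all 4 times, from the 32 libraries of the series. Endogenous Ikaros carries no HA tag and is not seen by the anti-HA beads, so the data follow the introduced fusion protein. Labels do not say whether the replicates were separate cultures, so p-values measure the spread between these libraries, which may be technical.

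Ikaros is a zinc finger transcription factor that restrains the proliferation of pre-B cells and promotes their maturation. Its fingers recognise short DNA words built on GGAA or GGGA, often repeated, and it recruits the NuRD complex, in which CHD4 moves nucleosomes and histone deacetylases remove acetyl groups. H3K27ac marks active promoters and enhancers, the elements on which Ikaros is known to act. Among marker genes of the pre-B cell, such as Pax5 and Cd79a, 9 of 9 had an H3K27ac peak within 1 kb of a transcription start site (TSS) in both 0 h libraries, and 9 of 9 had an Ikaros peak there in all 4 libraries. Of 8 T cell markers, 3 (Cd3d, Lat and Zap70) had the H3K27ac peak, and none of 8 myeloid, 6 neuronal or 6 hepatocyte markers did.

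The DNA under the strongest members is shown because the sequence is what Ikaros reads. The lines give the 3 gained, 3 lost and 3 kept regions with the highest fold enrichment rank, and the kept region with the lowest p for a change, each named by the protein-coding gene with the nearest TSS, which need not hold the region. Each sequence is the 30 bases (mm10, plus strand) within 100 bp of the summit with the largest number of the words GGAA and GGGA, counted on both strands, which are in capitals and may overlap.

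Myadml2, gained, chr11:120648464-120648493: taGGGAggaggagaaacagcagggggTTCC
Derl1, gained, chr15:57892882-57892911: tatgaagaagaatttcagaggatacGGGAA
Repin1, gained, chr6:48593243-48593272: GGAAgTTCCaagatggggttcttttGGAAa
Uxt, lost, chrX:20962075-20962104: GGGAAgatgcacttagGGGAAgggctgcag
Casc4, lost, chr2:121866983-121867012: gccggcttcTCCCgcTTCCCtgcggcGGGA
Gm45844, lost, chr7:7278059-7278088: agagagaggctctgTCCCtgcactcctaca
Elp5, kept, chr11:69980487-69980516: ccgttGGAAcagttatcagtGGGAtgGGGA
Polr2i, kept, chr7:30231892-30231921: TCCCgagaggccTTCCgtgcacGGGAAgca
Cpped1, kept, chr16:11687621-11687650: atactGGGAAcactgagaatactGGGAAta
Gfra2, kept, chr14:70850306-70850335: aagagagcTTCCCacaggaGGAAaggcagg

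The windows of Uxt, Casc4, Polr2i and Cpped1 held 4 words, a number reached by 20.4% of all regions. At least 3 words were held by 52.6% of all regions, 46.6% of the gained, 55.5% of the lost and 61.7% of the kept regions. A match of such short words is a description and no proof of a binding site.

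The 4 lists were not of equal size or depth, and both replicate 1 libraries were deeper than both replicate 2 libraries. They held 12447 and 14874 peaks at 1 h and 14225 and 14179 at 2 h, and the mean coverage recovered from the lists was 2.520 and 2.233 fragments per base at 1 h and 2.850 and 2.125 at 2 h (replicates 1 and 2). The lowest peak summit stood on 9 to 11 fragments, so the absence of a call means too few fragments for that library's cutoff, and does not show that Ikaros was absent. The highest −log10 p values belonged to regions on chromosomes 2 and 9 with folds of 1.71 to 3.85 in all 4 libraries, so regions were ranked by fold within a list and not by p.

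Most Ikaros regions were not called in the same way by replicate libraries. A single library called 8270 regions (37.8%), 2 libraries called 3625, 3 libraries called 3270 and all 4 called 6715 (30.7%). The 2 patterns that follow time, gained and lost, lay within the range of the 4 patterns that do not, except with lists of equal size, where 654 were lost and those 4 ran from 448 to 651. Both replicate 2 libraries and neither replicate 1 library called 920 regions (4.2%), the converse held for 369 (1.69%), and the crossed pairs called 485 (2.22%) and 677 (3.09%). These counts are a description, since 4 libraries allow no test of a count.

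**Figure D1:**
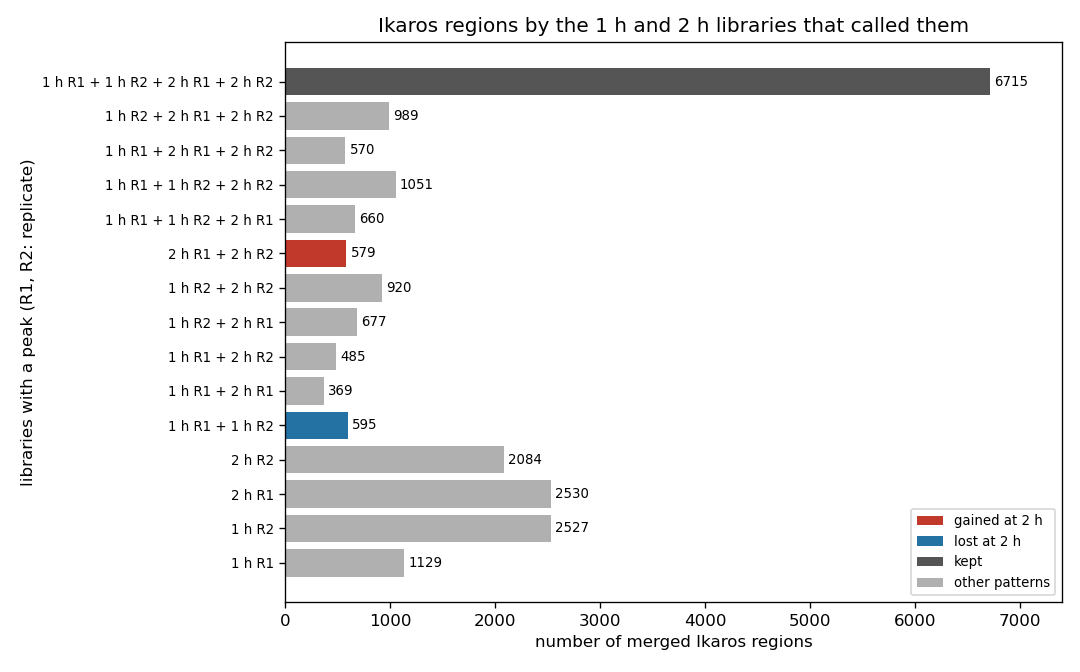
Number of merged Ikaros regions (x axis) for each combination of libraries that called a peak (y axis; R1 and R2 are replicates). The kept bar of 6715 regions is the longest, and the gained (579) and lost (595) bars lie between the 369 and 920 regions of the 2-library patterns that cut across time.

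Pairs of libraries of the same time shared no more regions than pairs across times. The 1 h replicates shared 54.1% of the regions called in either, and the 2 h replicates 50.2%. The 4 pairs across times shared 50.9%, 54.6%, 49.7% and 54.2%. Over the 6715 kept regions, Spearman's rho of the fold was 0.414 for the 1 h pair and 0.347 for the 2 h pair, and 0.336 to 0.42 for the pairs across times, which all share the same regions and cell line.

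The counts of gained and lost regions rest on each of the 4 libraries. With the other library of that time deciding alone, 1170 regions were gained and 3200 lost without 1 h replicate 1, and 1590 and 1846 without 1 h replicate 2. Without 2 h replicate 1 they were 2775 and 1295, and without 2 h replicate 2 they were 3302 and 1677. Kept regions numbered between 7285 and 7794 in these settings.

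Measures of a whole library did not separate the times. Median peak width was 520.5 ± 34.6 bp at 1 h (SD, n = 2) and 503.5 ± 24.7 bp at 2 h (exact permutation p = 0.667). Peaks within 1 kb of a TSS made up 51.8% ± 2.72 at 1 h and 51.9% ± 0.379 at 2 h (exact permutation p = 1). H3K27ac peaks of the same time and replicate number overlapped 85.9% ± 4.45 and 86.2% ± 1.07 (exact permutation p = 1). CHD4 peaks overlapped 37.7% and 30.1% of Ikaros peaks at 1 h and 26.5% and 50.6% at 2 h, where the 2 h replicates stood on either side of both 1 h values (exact permutation p = 1). The exact two-sided p of 2 against 2 libraries cannot go below 0.333, and the adjusted p over the 6 measures was 1 for each.

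Gained and lost regions ranked below kept regions within the lists. The median fold of gained regions was 3.95 and 4.16 in the 2 h libraries, and that of lost regions was 4.26 and 4.33 in the 1 h libraries. Kept regions had medians of 5.68 and 5.57 at 1 h and 4.9 and 5.62 at 2 h. As a percentile rank within the list, gained regions stood at a median of 39.9 and 32.8 and lost regions at 32.9 and 40.5, against 67.7 to 69.9 for kept regions. The 4 patterns of 2 libraries that cut across time had median percentiles of 32.9 to 38.9 and median folds of 3.9 to 4.41, so gained and lost regions shared this low rank with the other regions called in 2 libraries.

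Each list was divided into 10 classes by fold. In the highest class, 95.3% and 92.1% of 1 h peaks and 94.6% and 92% of 2 h peaks lay in kept regions. Of the same peaks, 0.161% and 0.537% lay in lost regions and 0.147% and 0.142% in gained ones. In the lowest class, 34.4% to 39.3% of peaks in the 4 lists were kept. Width followed the same order, with median merged widths of 556 bp for gained, 548 bp for lost and 1200 bp for kept regions, but a merged region widens with each list that adds to it. Within single lists, the peaks of a region together covered medians of 371 and 391 bp for gained and 352 and 412 bp for lost regions. For kept regions these medians were 701 to 822 bp.

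**Figure D2:**
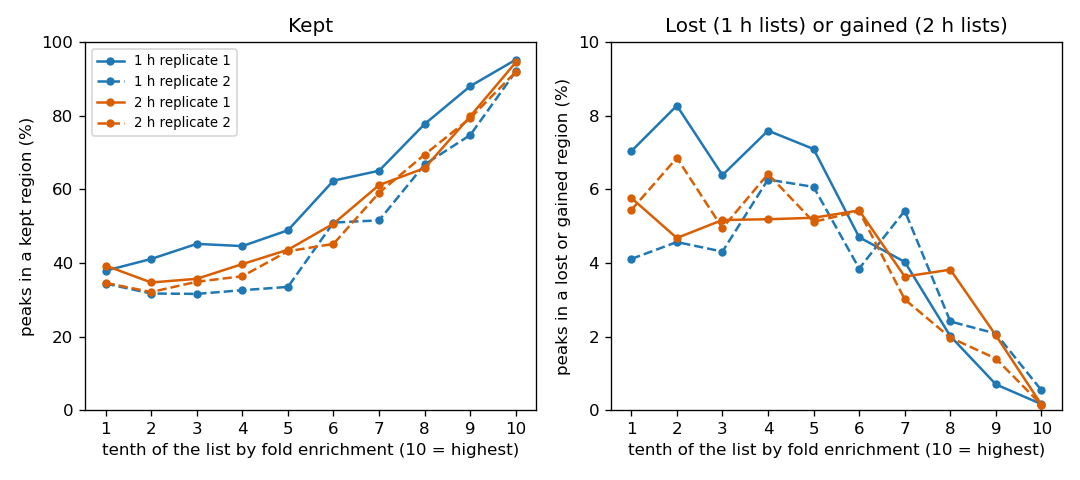
Share of peaks in a kept region (left) and in a lost or gained region (right) by class of the list ordered by fold enrichment (10 is the highest), for each of the 4 libraries. Kept shares reach 92% to 95.3% in the highest class, where the lost or gained share is at most 0.537%.

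Near the threshold, the weaker of the deciding peaks had a median −log10 q of 3.06 for gained and 3.37 for lost regions, with lowest values of 1.31 and 1.37. Just outside the rule, 4614 regions were called in a single 2 h library and no other, with a median −log10 q of 3.42, and 3656 in a single 1 h library, with 3.29. Only 62 gained and 106 lost regions had a −log10 q of at least 5 in both deciding libraries. These values chose the members and are given as a description.

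The strongest gained region covered the TSS of Myadml2, a gene of the myeloid-associated differentiation marker family. It had folds of 5.2 and 7.68 in the 2 h libraries (percentiles 76.4 and 91.4) and was not called at 1 h, at 30 min or at 0 h. The region beside Derl1, which encodes a channel component of endoplasmic reticulum-associated degradation, had folds of 6.15 and 6.08 at 2 h and was also called in both 30 min libraries. The one at Repin1, a zinc finger gene, had folds of 6.23 and 5.76. These 3 regions carried an H3K27ac peak in all 8 H3K27ac libraries, the state of an active promoter.

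The other strong gained regions lay near Plac8, Ncf4, Psmd5, Rpain and Iqgap1. Ncf4 encodes a subunit of the phagocyte NADPH oxidase, Psmd5 a proteasome assembly chaperone and Iqgap1 a cytoskeletal scaffold. The intronic region 3838 bp from the Ncf4 TSS had folds of 4.94 and 7.36. The 2005 bp region over the Iqgap1 TSS had folds of 5.97 and 5.62 and a CHD4 peak in both 2 h CHD4 libraries and in neither at 1 h. All 8 strongest gained regions carried H3K27ac in all 8 libraries, and none was called as an Ikaros peak at 0 h, beside 70.6% and 59.4% of all regions, and 73.6% and 76.5% of the gained ones.

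The strongest lost region covered the TSS of Uxt, a prefoldin-like chaperone gene on the X chromosome. It had folds of 6.82 and 7.73 in the 1 h libraries, was called in both 0 h libraries and in neither 30 min library, and had no CHD4 peak at any time. Casc4 had folds of 7.39 and 6.62 at a promoter with H3K27ac in 3 of 8 libraries. Usf1, which encodes a basic helix-loop-helix factor, had folds of 6.5 and 7.11 with H3K27ac in all 8.

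An intronic region of Runx1, a transcription factor needed for B cell development, lay 17794 bp from the TSS (chr16:92807725-92808218). Its folds at 1 h were 5.97 and 8.04 and it was called in no 0 h or 30 min Ikaros library. The remaining strong lost regions lay near Gm45844, Smad7, Lhx2 and Rab11fip4, the last 3 over 20 kb from the TSS. Of the 8 strongest lost regions, 6 had also been called in at least 1 of the 0 h libraries, namely Uxt, Casc4, Gm45844, Smad7, Lhx2 and Rab11fip4, beside 40.8% of all lost regions and 40.6% of all regions.

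The strongest kept regions lay at promoters and at a distal intronic element. The region between Elp5, an Elongator subunit, and Ctdnep1 had folds of 22.2 and 14.9 at 1 h and 11.7 and 16.6 at 2 h. The region over Polr2i, an RNA polymerase II subunit, and Tbcb had folds of 16.5 and 21.3 at 1 h and 12.7 and 13.1 at 2 h. In neither did the change pass the test, with limma log2 changes of −0.28 (SE 0.33) and −0.44 (SE 0.32) and adjusted p of 0.972 and 0.956. The intronic region named for Cpped1 lay within Snx29, 221760 bp from the Cpped1 TSS, and had a CHD4 peak in all 8 CHD4 libraries and an H3K27ac peak in none. Zfp36, which encodes the mRNA decay factor tristetraprolin, had folds of 15.9, 14.4, 11.4 and 13.4 and CHD4 and H3K27ac in all libraries.

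At kept regions, no fold change between 1 h and 2 h passed the test on centred values. The log2 fold enrichment, centred on each library's median, was compared by limma over all 6715 kept regions, and 0 regions were higher (0%) and 0 lower (0%) at an adjusted p of 0.05. The lowest adjusted p was 0.526. At an unadjusted p of 0.05, 125 regions were higher (1.86%) and 194 lower (2.89%), together 319 (4.75%). The balance depended on the scaling, with 51 higher and 316 lower without centring and 14 higher and 161 lower with summit pileups per mean coverage, where the median of all kept regions moved to −0.11 and −0.13. Without centring, 1 region passed as lower (lowest limma adjusted p = 0.0285). A region had to pass the threshold in all 4 libraries to be tested, so a change large enough to end a call was not in this test.

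The change with time was as wide as the change between replicate numbers. The difference of 2 h minus 1 h means had an SD of 0.359 on the log2 scale over kept regions, and the difference of replicate 2 minus replicate 1 means had an SD of 0.356. Over 1 log2 unit, 47 regions (0.7%) differed between times, 13 higher and 34 lower at 2 h, and 37 (0.551%) differed between replicate numbers. The absolute change with time had a median of 0.24 and was within 0.5 for 84.1% of kept regions.

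**Figure D3:**
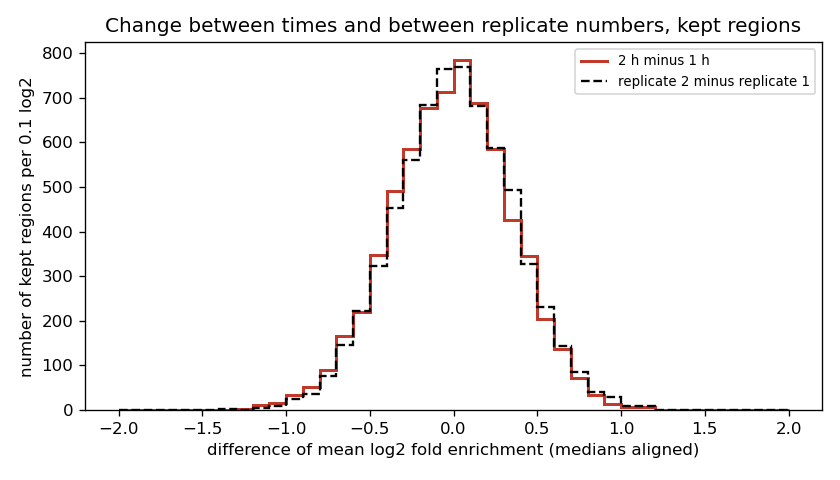
Number of kept regions by the difference of mean log2 fold enrichment in bins of 0.1, between times (solid) and between replicate numbers (dashed). The outlines overlie, with SDs of 0.359 and 0.356, and 47 and 37 regions lie beyond 1 log2 unit.

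The kept region with the lowest p was a 3173 bp intergenic element with its summit 39799 bp from the TSS of Gfra2 (chr14:70847876-70851048), a receptor of the GDNF family and one of the genes the study names as repressed early after induction. Its folds were 19.5 and 23.5 at 1 h, in the highest percentile of both lists, and 7.27 and 4.48 at 2 h, at percentiles 95.7 and 44.2. The groups did not overlap, which choosing a region by its low p favours. The log2 change was −1.81 (SE 0.36), but it did not pass the test (unadjusted p = 0.00011, limma adjusted p = 0.526). The element was called in both 0 h and both 30 min libraries, in both CHD4 libraries at 1 h and in 1 of 2 at 2 h, and it carried H3K27ac in all 8.

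The next regions with lower values at 2 h lay at Arnt, Cpn2, Tcf25 and Trim16. The region over the TSS of Arnt, the partner of hypoxia and dioxin receptor factors, had folds of 8.02 and 9.82 at 1 h and 2.28 and 3.45 at 2 h. Cpn2, 86147 bp from the summit, had 12.2 and 11.4 at 1 h and 3.3 and 4.62 at 2 h. Each of the 4 had 1 h values above both 2 h values, with adjusted p of 0.526 to 0.956. They too were chosen by their low p, which favours such a separation.

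In the other direction stood regions at Pip4k2a, Zfp212, Ywhag, Alad and Znrf1. The intronic region of Pip4k2a, a phosphoinositide kinase gene, had folds of 2.99 and 2.95 at 1 h and 5.71 and 6.4 at 2 h. The promoter of Alad, an enzyme of heme synthesis, had 4.37 and 3.04 at 1 h and 5.71 and 9.6 at 2 h. The log2 changes of these 5 were between 1.05 and 1.14 and their adjusted p was 0.956.

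**Figure D4:**
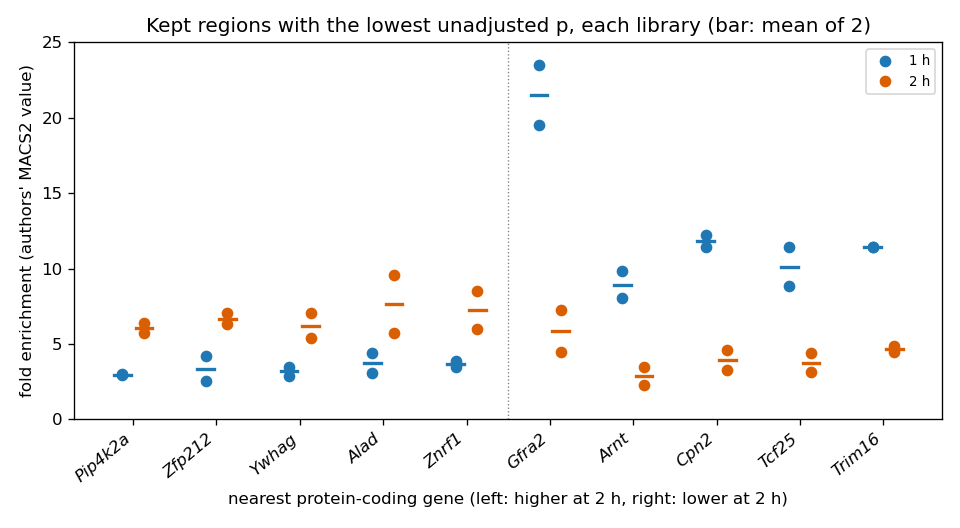
Fold enrichment (y axis, the authors' values) in each library at the 5 kept regions with the lowest unadjusted p in each direction, named by the nearest protein-coding gene, with points for libraries and bars for the mean of 2. The 2 h points lie above the 1 h points at the 5 left regions and below them at the 5 right ones, where Gfra2 goes from 19.5 and 23.5 to 7.27 and 4.48, and none passed the adjusted test. The regions were chosen by p, which favours points that do not overlap.

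Gained regions held fewer of these words at their summits than lost or kept regions did, which is given as a description because regions of a list are not replicates. Within 50 bp of the summit, GGAA and GGGA, counted on both strands, together occurred 2.71 ± 1.8 times per 100 bp in gained regions (SD over 579 regions), 3.38 ± 2.00 in lost regions and 3.44 ± 2.02 in kept regions, against 3.02 over all regions. The 4 patterns of 2 libraries that cut across time gave 2.79, 2.85, 3.07 and 3.1. After subtraction of flanks 400 to 500 bp away the means were 0.587 for gained, 1.2 for lost and 1.08 for kept regions, and for the same words with their letters in reverse order they were 0.262, 0.375 and 0.363.

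The longer word GGGAA or TTCCC lay within 50 bp of the summit in 185 gained regions (32%), 235 lost regions (39.5%) and 2791 kept regions (41.6%), beside 37% of all regions. GC content of the same window was 52.9% in gained, 55.7% in lost and 57.2% in kept regions, and its part in the word counts was not tested. Per library, summits minus flanks gave 1.05 and 0.868 words per 100 bp at 1 h and 0.668 and 0.868 at 2 h, a difference of −0.193 (exact permutation p = 0.333, the smallest that 2 against 2 allows). A library of each time gave 0.868, so the times touched.

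A TSS lay within 1 kb of 54.2% of gained, 45.4% of lost and 57% of kept regions, beside 49.6% of all. The summit was in an intron in 45.1% of gained and 45.7% of lost regions, in a UTR in 12.6% and 9.92%, in another exon in 7.94% and 8.74%, and between genes in 34.4% and 35.6%. A kept region lay within 5 kb of 26.8% of gained and 19.3% of lost regions, beside 25.6% of all regions that were not kept, so most of either set stood apart from the kept sites.

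A larger share of lost than of gained regions was called before 4-OHT, in both 0 h libraries. In the 0 h Ikaros libraries, 12.1% and 18.1% of gained, 27.2% and 32.6% of lost and 62.8% and 69.4% of kept regions were called, against 29.4% and 35% of all. At 30 min the shares were 19.7% and 7.6% for gained, 27.9% and 11.3% for lost and 77.5% and 52.4% for kept regions. The 0 h difference of lost minus gained averaged 14.8 percentage points, and it turned to −10.6 without 1 h replicate 1 and to −2.01 without 1 h replicate 2. It was 25.1 without 2 h replicate 1 and 29.1 without 2 h replicate 2. With 1 library left at a time, that library alone decides the regions of its time, while 2 must still call those of the other. These settings therefore cannot show what the direction rests on.

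A peak in some CHD4 library lay at 55.4% of gained and 50.1% of lost regions, beside 57.7% of all, and gained regions had a higher share than lost ones in both replicates at 2 h, but at no other time in both. In the 1 h CHD4 libraries 11.6% and 10.7% of gained and 14.3% and 14.3% of lost regions overlapped a peak. In the 2 h libraries these shares were 19% and 38% for gained and 6.89% and 23.5% for lost regions. Over all regions the shares were 24.8% and 22.6% at 1 h and 19.1% and 39.5% at 2 h, so both sets lay below them at 1 h, and at 2 h gained regions lay near them and lost regions below. All regions include the kept ones, with 38.9% and 68.3% at 2 h. The patterns of 2 libraries that cut across time had 7.28% to 17% and 27.6% to 33.9% at 2 h. Gained shares lay above these and lost shares below. At 1 h those patterns had 11.4% to 18.4% and 8.04% to 16.2%, and both sets lay within these ranges. The gained minus lost share was thus −2.71 and −3.58 percentage points at 1 h and 12.1 and 14.5 at 2 h. It was −1.72 and −6.09 at 0 h and 2.44 and −0.678 at 30 min.

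The change of 16.4 points from 1 h to 2 h had an exact permutation p of 0.333, the smallest possible with 2 libraries a time. Pairings of libraries that do not follow time gave shifts of the same kind. Regions called in replicate 2 only minus those in replicate 1 only differed by 3.4 and 5.73 points in the CHD4 libraries of replicate 2 and by −7.02 and −8.98 in those of replicate 1, a shift of 12.6 points. The crossed pairs gave a shift of 9.52 points, so shifts of this kind were not particular to time. The 16.4 points of the time contrast were 10.3 without 1 h replicate 2, 8.71 without 2 h replicate 1, 7.17 without 2 h replicate 2 and 8.91 when 200 bp windows at the summits were merged. At promoters the 2 h shares were 19.7% and 28.7% for gained and 6.3% and 19.6% for lost regions, and at distal regions 18.1% and 49.1% against 7.38% and 26.8%. The numbers of CHD4 peaks differed between replicates, with 5446 and 5027 at 1 h and 5523 and 9593 at 2 h.

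A tie between CHD4 and Ikaros calls of one time and replicate number appeared within single libraries. Within each CHD4 library, of the regions called in 1 Ikaros library only, those of the same time and replicate number had the highest share with a CHD4 peak. For CHD4 at 2 h replicate 1, the share was 10% at regions only in Ikaros 2 h replicate 1, but 6.48% at those only in 2 h replicate 2 and 5.58% and 4.95% at those only in a 1 h library. For CHD4 at 2 h replicate 2, it was 22.9% in the matching library, 18.8% in the other 2 h library, and 14.8% and 16.8% in the 1 h libraries.

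At 1 h the matching shares were 7.53% and 8.11%, and those of the other 3 libraries were 5.05% to 6.88%. Among regions called in 2 Ikaros libraries, the CHD4 share was higher where the matching library was 1 of the 2, by 3.19 and 5.12 points at 1 h and by 10.3 and 7.51 at 2 h. In the 2 h H3K27ac libraries the matching share was also the highest (72.5% and 69.3%). At 1 h it was 69.2% in replicate 1, beside 69.1% in the next library, and 60.9% in replicate 2, the lowest of its 4. Labels do not say whether ChIPs of one time and replicate number shared chromatin. The part that a shared replicate number plays in the gained minus lost difference was not tested.

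**Figure D5:**
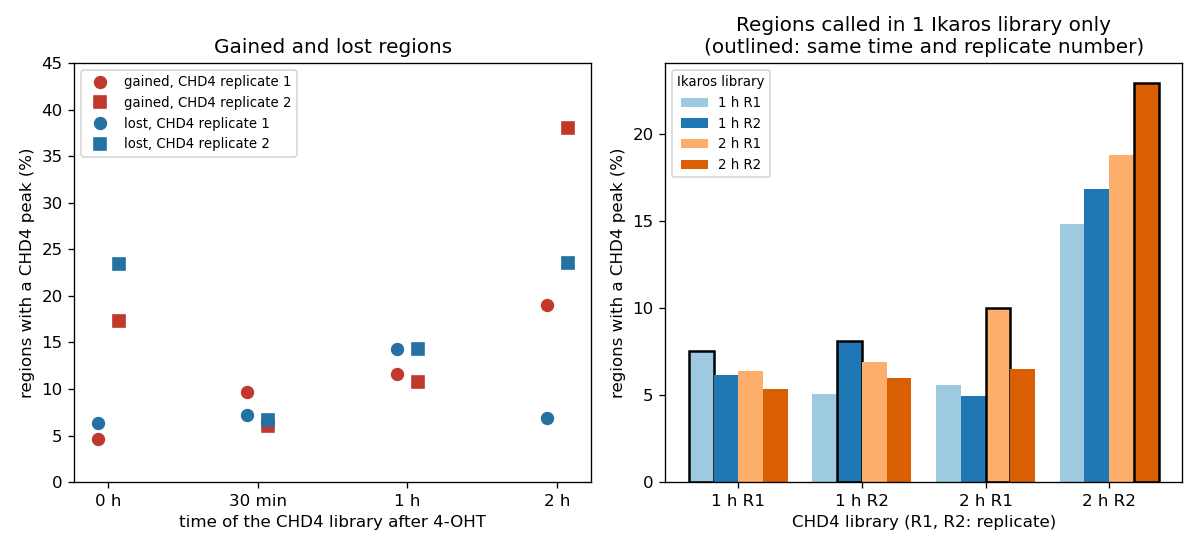
Left, share of gained (red) and lost (blue) Ikaros regions with a CHD4 peak, for each CHD4 library by time. Right, share of regions called in 1 Ikaros library only that have a CHD4 peak, for each 1 h and 2 h CHD4 library, where the outlined bar, for the Ikaros library of the same time and replicate number, is the highest of its 4 (7.53%, 8.11%, 10% and 22.9%).

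H3K27ac was present at most gained and lost regions at all times. At 0 h it overlapped 84.6% and 81.5% of gained, 83% and 80% of lost and 95.6% and 94.7% of kept regions. At 2 h the shares were 82.6% and 82.7% for gained, 75.6% and 72.1% for lost and 93.8% and 93.4% for kept regions. All regions had 82.3% and 80% at 0 h and 80.2% and 78.6% at 2 h, and at 2 h the lost shares were below these and the gained shares above. The gained minus lost share was 5.42 points higher at 2 h than at 1 h on average, a difference that was not tested. It was 3.18 without 1 h replicate 1, 2.63 without 1 h replicate 2 and 1.98 with 200 bp summit windows. In all 8 H3K27ac libraries, 73.6% of gained and 65.9% of lost regions had a peak, and 9.15% and 10.8% had none, beside 70.6% and 10.7% of all regions.

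Of 21911 protein-coding genes, 3.7% had a gained region within 20 kb of a TSS, 3.51% a lost region and 29.4% a kept region. The 20 genes the study names as repressed early after Ikaros induction were chosen there on RNA from the same cells, so they are no independent evidence of direction. Of them, 16 had a kept region within 20 kb, 2 a gained region (Gfra2 and Lrrfip1) and 2 a lost region (Ccnd2 and Plekho2). A kept region lay beside each of these 4 genes as well.

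The gained region 3919 bp from the Gfra2 TSS had folds of 3.33 and 4.55 at 2 h, and that in an intron 12909 bp from a TSS of Lrrfip1 had 3.03 and 4.16. The lost region over the TSS of Ccnd2, which encodes cyclin D2, had folds of 5.4 and 3.31 at 1 h, and that of Plekho2 had 5.4 and 4.44. A kept region next to the former also covered a Ccnd2 TSS, with folds of 6.53 and 4.82 at 1 h and 4.54 and 7.04 at 2 h, so the promoter was still called at 2 h. All 4 gained and lost regions had H3K27ac in all 8 libraries, and none stood above percentile 62.6 of its list.

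The 32 kept regions within 20 kb of these 16 genes had log2 changes with a median of −0.001, with 16 above 0 and 16 below, beside −0.00671 over all kept regions. None passed the test, with a lowest adjusted p of 0.956, and 4 had an unadjusted p under 0.05. One was the promoter of Lrrfip1, a leucine-rich repeat protein gene, with folds of 9.86 and 9.66 at 1 h and 2.77 and 5.36 at 2 h (log2 change −1.24, SE 0.34). Another covered the TSS of Vpreb1, with its summit within Top3b. Vpreb1 encodes a chain of the surrogate light chain of the pre-B cell receptor, and the region had 6.53 and 6.88 at 1 h and 3.04 and 3.64 at 2 h (log2 change −0.91, SE 0.32). An intronic region of Lgals9, the galectin 9 gene, had 5.4 and 5.88 at 1 h and 3.36 and 3.14 at 2 h (log2 change −0.69, SE 0.32). The last, within Pif1 and 6223 bp from a TSS of Plekho2, had the opposite sign, with 5.83 and 3.63 at 1 h and 7.69 and 7.04 at 2 h (log2 change 0.78, SE 0.34).

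At Igll1, the other surrogate light chain gene, the region over the TSS had folds of 12.2 and 12.4 at 1 h and 5.86 and 13.4 at 2 h, so the times overlapped. Myc, a driver of proliferation, had a region over a TSS with 4.58 and 6 at 1 h and 5.97 and 8.32 at 2 h. The promoter region of Ccnb1, encoding cyclin B1, had 6.12 and 8.09 at 1 h and 6.35 and 6.31 at 2 h. For Ccnd1, Espnl, Hs3st2 and Ramp1, no kept region lay within 20 kb.

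Genes of pre-B and B cell receptor signalling had lost regions at 4 of 15 members (26.7%) and gained regions at none. The shares over all protein-coding genes were 3.51% and 3.7%. Syk, a kinase at the receptor, had a lost region over a TSS with folds of 4.37 and 4.41 at 1 h. Lyn and Btk, also kinases that act in this signalling, had intronic ones with 5.1 and 8.04 and with 3.67 and 7.55. Plcg2, a phospholipase downstream of these kinases, had an intergenic one with 5.11 and 2.79. A kept region lay within 20 kb of 13 of the 15 genes (86.7%), beside 29.4% of all protein-coding genes. Lost regions were thus not the only kind more frequent near these genes, and no test was made of the list.

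B lineage transcription factors had a kept region at 16 of 17 genes, a gained one at Gfi1b and a lost one at Runx1. The gained region over the TSS of Gfi1b, a repressor of the Gfi family, had folds of 4.94 and 5.62 and was called in 1 of the 2 libraries at 0 h and at 30 min. Of 12 genes of the interleukin 7 receptor and STAT5 pathway, 1 had a gained region (Socs2, a feedback inhibitor, 2.94 and 4.16), and Stat5a and Stat5b shared 1 lost region, with folds of 3.88 and 5.36. Kept regions lay beside 10 of these 12.

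Of 17 cell cycle genes, 12 had a kept region, Cdkn1b, which encodes the inhibitor p27, a gained one next to a kept one (3.52 and 4.16 in the gained one), and Ccnd2 and E2f2 a lost one. Of the 11 BCL2 family genes, Bcl2, which protects from cell death, had a gained region over a TSS (3.38 and 4.82). Another lay 15503 bp from a TSS of Bak1, which promotes cell death, with its summit within Ggnbp1 (4.1 and 5.12). Bbc3 had a lost region, and 7 of the 11 genes had a kept one. All 11 immediate early genes had a kept region. A gained region lay 17518 bp from a TSS of Egr1, with its summit within Reep2, and a lost one 4623 bp from a TSS of Fos. Of 9 Notch pathway genes, 7 had a kept region, Notch1 a gained one and Nrarp a lost one.

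Among 13 NuRD subunit genes, 9 had a kept region. A gained region (4.16 and 3.84) lay 7475 bp from a TSS of Mta2, with its summit within Tut1. Of 15 genes of glucose uptake and glycolysis, 10 had a kept region. A gained region (3.64 and 4.8) lay 19902 bp from a TSS of Txnip, an inhibitor of glucose uptake, with its summit within Polr3gl and Gm16253. Kept regions lay beside 6 of 12 adhesion and migration genes, 3 of 5 Ikaros family genes and 1 of 3 recombination genes, none of which had a gained or lost region. Near the marker genes, kept regions lay beside 9 of 9 pre-B, 5 of 8 T cell and 5 of 8 myeloid genes, and 1 gained region lay near Elane, a myeloid gene (4.16 and 3.84).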

How the data were processed

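ChIP-seq peak lists of 2 Ikaros libraries at 1 h and 2 at 2 h were compared, with groups taken from the library titles. The authors aligned reads to mm10 with Bowtie2 2.4.2, marked duplicates with Picard 2.23.7, called peaks per library with MACS2 2.2.7.1 and used deepTools 3.5.0 (methods and processing notes). Settings for 30 min, the use of input and whether the peak lists were filtered by a blacklist are not given in the sources used here (the methods name a blacklist for coverage tracks).

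The deposited lists give a score (not used), the fold enrichment (a ratio over local background), the p-value and the q-value, both as −log10, as the authors' caller wrote them. Lists were merged where they overlapped by at least 1 bp, and a region took its peak with the highest fold in each list. Fragments at a summit and mean coverage were recovered from fold and −log10 p; 99.979% to 99.993% of pileups came out whole (tolerance 0.001). Kept regions were compared on log2 fold enrichment by limma 3.58.1 in R 4.3.3 with Benjamini-Hochberg adjustment, tested on simulated data. Genes came from GENCODE M21 and sequences from the RefSeq copy of GRCm38 (mm10).

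Named regions were the 8 gained, 8 lost and 5 kept with the highest mean fold percentile, and the 5 kept per direction with the lowest p. Genes were all early repressed, and up to 4 per other list, with a gained or lost region within 20 kb. Members and lists were chosen with earlier results of these data known. Alternatives were a −log10 q or fold of at least 3, lists of equal size, an overlap of 50%, 200 bp summit windows, other normalizations, a replicate block, each library left out, a 3 kb promoter and a 50 kb gene distance. Input libraries were not analysed here, and 1 gene of the receptor and marker lists is not reported here.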

Additional observations from a re-analysis of the deposited data

Results flagged for a closer look

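The share of gained minus lost Ikaros regions with a CHD4 peak was below 0 in both 1 h CHD4 libraries (−2.71 and −3.58 percentage points) and above 0 in both 2 h libraries (12.1 and 14.5). The means were −3.15 ± 0.611 and 13.3 ± 1.67 (SD, n = 2), a difference of 16.4 points, and 2 libraries against 2 cannot give an exact permutation p below 0.333. The same contrast shifted by 12.6 points between replicate numbers (regions of replicate 2 only minus those of replicate 1 only) and by 9.52 between the crossed pairs, so shifts of this kind also arose in pairings that do not follow time. Over all regions the shares were 24.8% and 22.6% at 1 h and 19.1% and 39.5% at 2 h, so gained regions (19% and 38% at 2 h) lay near the overall share and lost regions (6.89% and 23.5%) below it. The overall share includes the kept regions (38.9% and 68.3% at 2 h). The patterns of 2 libraries that cut across time had 7.28% to 17% and 27.6% to 33.9% at 2 h. Gained shares lay above these and lost shares below, a difference that was not tested. Within each CHD4 library, regions of the matching Ikaros library alone had the highest share.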

How the results depend on the processing

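Counts of gained, lost and kept regions stayed within 1.5 times of the main counts with equal list sizes, an overlap of 50%, stricter fold or q-value minimums of 3, and, added after seeing the data, without regions whose summit is repeat-masked. With equal list sizes, lost regions (654) exceeded the 448 to 651 of the patterns across time. With 200 bp summit windows, 876 regions were gained, 1013 lost and 4001 kept, and 778 were called in replicate 1 only. Leaving out each library gave 1170 to 3302 gained, 1295 to 3200 lost and 7285 to 7794 kept regions. The tests of kept regions called 0 higher and 0 lower under each alternative except without centring, where 1 was lower and the median of all kept regions moved to −0.11 (−0.13 with summit pileups per mean coverage, which called 0). The replicate block called 0, with a lowest adjusted p of 0.067, and left the gained (579) and lost (595) regions as they were by construction. Same-numbered libraries did not deviate together (correlation 0.000578 over 6715 regions). The CHD4 difference of 16.4 points was 7.17 to 13.4 without each library and 8.91 to 18.8 otherwise. The 0 h difference of 14.8 points ranged from −10.6 to 29.1 without each library and reversed without either 1 h library (−10.6 and −2.01). Leaving out a library lets 1 library decide the regions of its time, so these settings cannot show what the direction rests on. The number of peaks, 541.5 more at 2 h, was −101.5 with a −log10 q of at least 3. The cause was not tested. Each time had 2 libraries, with summits of 9 fragments or more. How far weak sites near the threshold limit the counts was not tested.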
